A study of Homo sapiens with 20 samples.

Results

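Integrins are surface receptors made of an alpha and a beta chain, and the 34 genes described here are the 18 alpha chains and 8 beta chains, the 5 intercellular adhesion molecules (ICAMs), VCAM1, MADCAM1 and CD44 that a list of surface adhesion genes picked by name from the 18305 genes of the deposited RNA-seq table. Myeloma is a malignancy of plasma cells, which live in the bone marrow attached to stromal cells and matrix. Integrin alpha-4 pairs with beta-1 to form VLA-4, the receptor for VCAM-1 and fibronectin, or with beta-7 to form the receptor for MAdCAM-1, while alpha-L and beta-2 form LFA-1, which binds the ICAMs on neighbouring cells. A chain reaches the cell surface only as part of a pair, so each was followed together with its partners over all groups.

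RNA came from 20 libraries, 2 biological replicates in each of 10 groups. Wild-type (WT) and bortezomib-resistant (BtzR) cells were sequenced for 3 myeloma lines, which are AMO1, L363 and RPMI-8226, and for the B-lymphoblastoid line ARH-77, with carfilzomib-resistant (CfzR) cells added for AMO1 and L363. All are established human lines in the same serum-containing medium. The resistant myeloma cells were evolved in vitro, whether they are clones is not stated, and all resistant cells were kept in 90 nM of their proteasome inhibitor, so that resistance and the drug's presence cannot be told apart. Values are FPKM, the fragments of a gene scaled by transcript length and by library size, and the comparison of interest was which adhesion chains differ between resistant and parental cells.

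The libraries labelled AMO1 CfzR stand apart from their label. Across the 13089 genes tested, their log2(FPKM + 1) correlated with the 6 L363 libraries at a Pearson r of 0.986 to 0.992 and with the 4 other AMO1 libraries at 0.878 to 0.883, against 0.986 to 0.998 between replicates of a group. They are named by their label throughout, and the fit without them changed no call among the members in the other comparisons. Summed FPKM ran from 457317 to 494850 per library, 10455 to 11023 genes reached 1 FPKM, and no libraries were identical. Plasma cell markers (7 genes) summed to 852 to 4083 FPKM in the myeloma libraries and 278 to 322 in ARH-77, and B cell markers (6 genes) to 1.4 to 65.7 and 370 to 514. Endothelial markers (4 genes), fibroblast markers (5) and platelet markers (2) summed to at most 3.94, 1.76 and 2.03 FPKM, with CDH5, DCN and PF4 at no more than 0.03 as a group mean. These sums came mainly from PECAM1 (highest group mean 3.8, L363 WT), COL1A1 (1.5, ARH-77 BtzR) and GP1BA (1.8, ARH-77 BtzR). RPMI-8226 differed from the other lines in EPCAM and KRT18, at 56.4 and 86.8 FPKM in WT and 63.1 and 82.1 in BtzR (means). KRT19, KRT8 and CDH1, the rest of the epithelial list, did not follow. KRT19 was at 0 in both RPMI-8226 groups. KRT8 had means of 6.01 and 4.01 in RPMI-8226 WT and BtzR, against 8.8 in AMO1 WT. CDH1 had means of 1.29 and 0.18 there, against 2.6 in L363 WT. Because these are bulk samples, fewer cells carrying a transcript and less of it per cell cannot be told apart.

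Of the 34 genes, 8 reached 1 FPKM in every library, namely ITGA4, ITGAV, ITGB1 and ICAM1 to ICAM5. Another 8 had no group mean of 1 FPKM and were not tested: ITGA2B, ITGA7, ITGA9, ITGA10, ITGA11, ITGB4, ITGB6 and MADCAM1, whose highest library value was 1.03 FPKM. MADCAM1, the counter-receptor of alpha-4/beta-7, was never above 0.57 FPKM. The remaining 26 genes passed the filter and were compared with limma on log2(FPKM + 1). ITGA1, ITGA5, ITGAM, ITGB3 and VCAM1 passed only through ARH-77, and ITGAD only through AMO1 BtzR. ITGA8 passed only through L363 and the libraries labelled AMO1 CfzR, and ITGA2 only through RPMI-8226 BtzR and L363 CfzR. Calls that rest on such a gene being higher there were favoured by the filter in advance. A call means an adjusted p under 0.05 (Benjamini-Hochberg, over all 13089 genes) together with a log2 difference of at least 1.

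**Figure D1:**
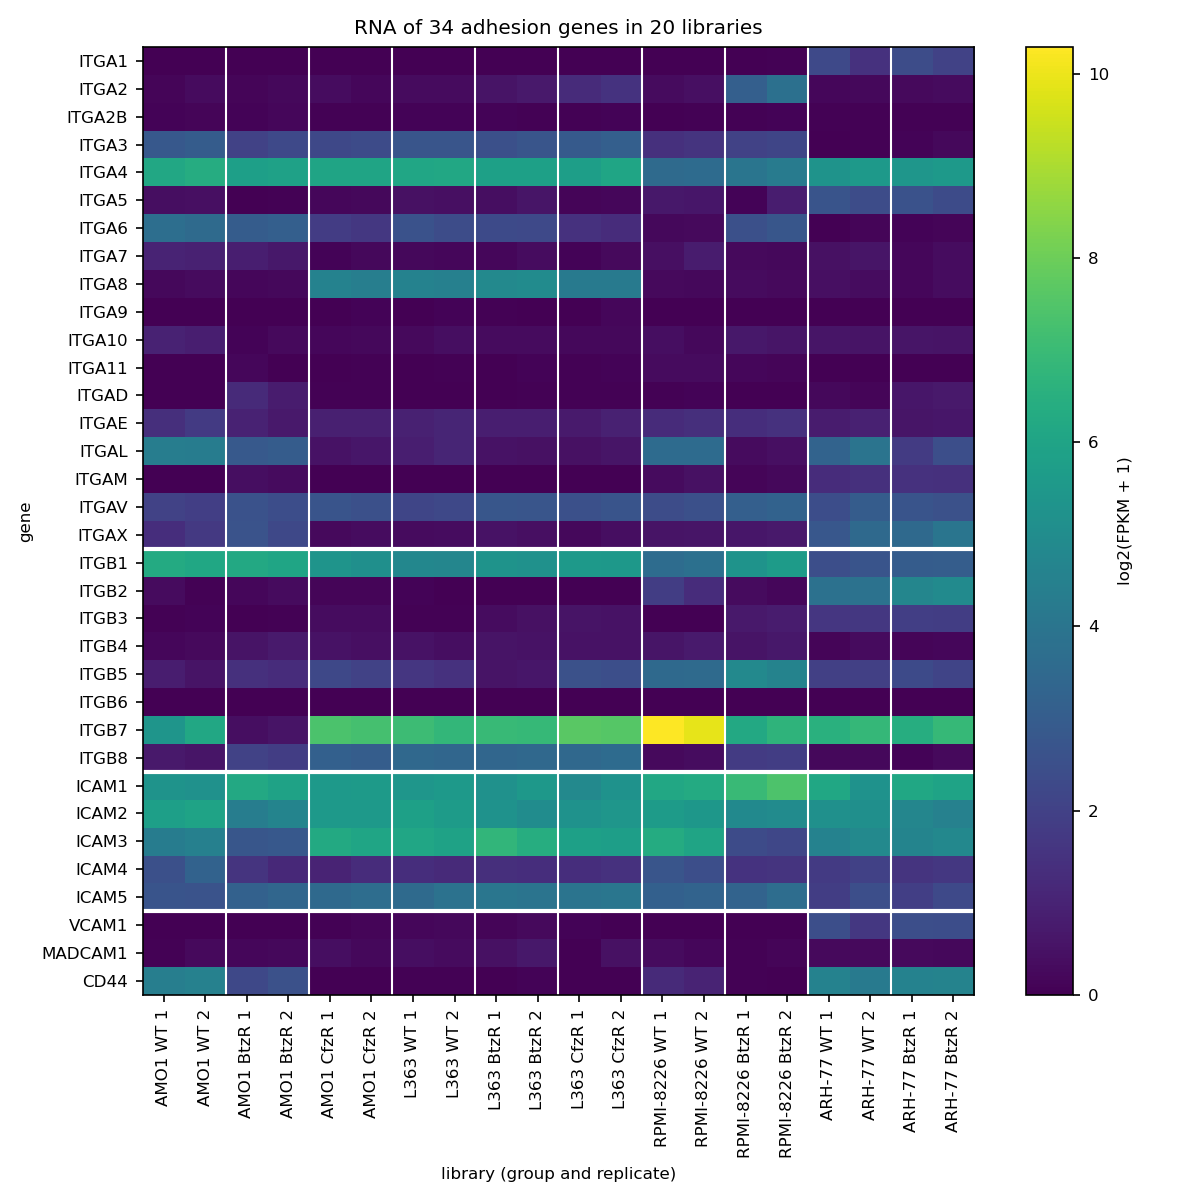
Heat map of log2(FPKM + 1) for the 34 adhesion genes (rows, ordered as alpha chains, beta chains, ICAMs and the rest) in the 20 libraries (columns, group and replicate); colour runs from 0 to the highest value. ITGB7 in RPMI-8226 WT is the brightest entry at 1257 and 974 FPKM, and the libraries labelled AMO1 CfzR share ITGA8 and ITGB8 with L363.

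Most of the tested set was called as different among the parental lines. The moderated F test called 20 of 26 members among the 4 WT lines, where 52.2% of all genes tested were called, and the median range over the lines was 2.10 on the log2 scale for the members against 1.04 for all genes. The 6 members not called were ITGA2, ITGAD, ITGAE, ITGAV, ICAM1 and ICAM2. Of those called, ITGA1, ITGA5, ITGAM, ITGB3 and VCAM1 passed the filter only through ARH-77. ITGA8 passed only through L363 and the libraries labelled AMO1 CfzR. Their calls and ranges were favoured by the filter in advance and are no independent support for a difference.

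ITGB7 had the highest group mean of the beta chains in 3 of the 4 WT lines. RPMI-8226 WT held 1257 and 974 FPKM of it, L363 WT 131 and 113, ARH-77 WT 91.0 and 116, and AMO1 WT 40.4 and 72.0. L363 and ARH-77 lie next to each other in this order and their libraries overlap, whereas RPMI-8226 WT was above every other library of the series. ITGB1, the chain that most alpha chains use, had another order of levels: 77.0 and 69.1 FPKM in AMO1 WT, 26.1 and 25.8 in L363 WT, 11.5 and 13.1 in RPMI-8226 WT and 4.50 and 5.44 in ARH-77 WT. As a share of all beta chain FPKM, ITGB7 made up 98.0% and 97.4% in RPMI-8226 WT, 77.2% and 75.1% in L363 WT, 79.8% and 82.4% in ARH-77 WT and 33.9% and 50.6% in AMO1 WT. AMO1 WT replicates thus differed in this share by more than those of any other WT line.

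ARH-77 differed from the myeloma lines in ITGB2 and its alpha partner ITGAX. Against the unweighted mean of the 3 myeloma WT lines, 14 members were called (22.3% of all genes), 8 higher (11.9%) and 6 lower (10.3%). Of the higher ones, ITGA1, ITGA5, ITGAM, ITGB3 and VCAM1 passed the filter only through ARH-77, so their calls are no independent support for a difference. The same holds for ITGA8 among the lower ones, which passed only through L363 and the libraries labelled AMO1 CfzR. ITGB2, the beta chain of the leukocyte integrins, stood at 13.3 and 13.9 FPKM in ARH-77 WT, at 2.70 and 1.47 in RPMI-8226 WT and at or below 0.24 in AMO1 and L363 (log2 difference 3.25, SE 0.12, limma adjusted p = 3.28e-12). Of its alpha partners, ITGAX, at 5.87 and 10.6 FPKM, and ITGAM, at 1.46 and 1.70, were also higher. ITGAL and ITGAD were not called, and the ITGAL libraries overlapped, at 8.65 and 14.4 FPKM in ARH-77 WT against 19.3 and 19.2 in AMO1 WT, 11.2 and 11.2 in RPMI-8226 WT and 0.83 and 1.08 in L363 WT. Higher as well were ITGA5 (the fibronectin receptor chain), ITGA1, ITGB3, VCAM1 and CD44. VCAM1, a counter-receptor of VLA-4, reached 4.62 and 2.14 FPKM in ARH-77 WT and no more than 0.15 in any myeloma WT library. Lower in ARH-77 were ITGB1, the laminin receptor chains ITGA3 and ITGA6, ITGA8, ITGB8 and ICAM5. The groups overlapped for ITGA8 and CD44, since the myeloma lines were themselves unequal. ITGA8, a chain that pairs with beta-1, was at 22.9 and 21.3 FPKM in L363 WT and at 0.35 or less in all libraries of AMO1 WT, RPMI-8226 WT and ARH-77 WT. CD44, the hyaluronan receptor, was at 20.2 and 21.8 FPKM in AMO1 WT, 22.8 and 17.6 in ARH-77 WT, 1.31 and 1.03 in RPMI-8226 WT and 0.03 and 0.03 in L363 WT. The call on ICAM5 was lost without L363 WT replicate 2 or ARH-77 WT replicate 1 (log2 differences of -1.32 to -0.74 over the libraries left out).

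**Figure D2:**
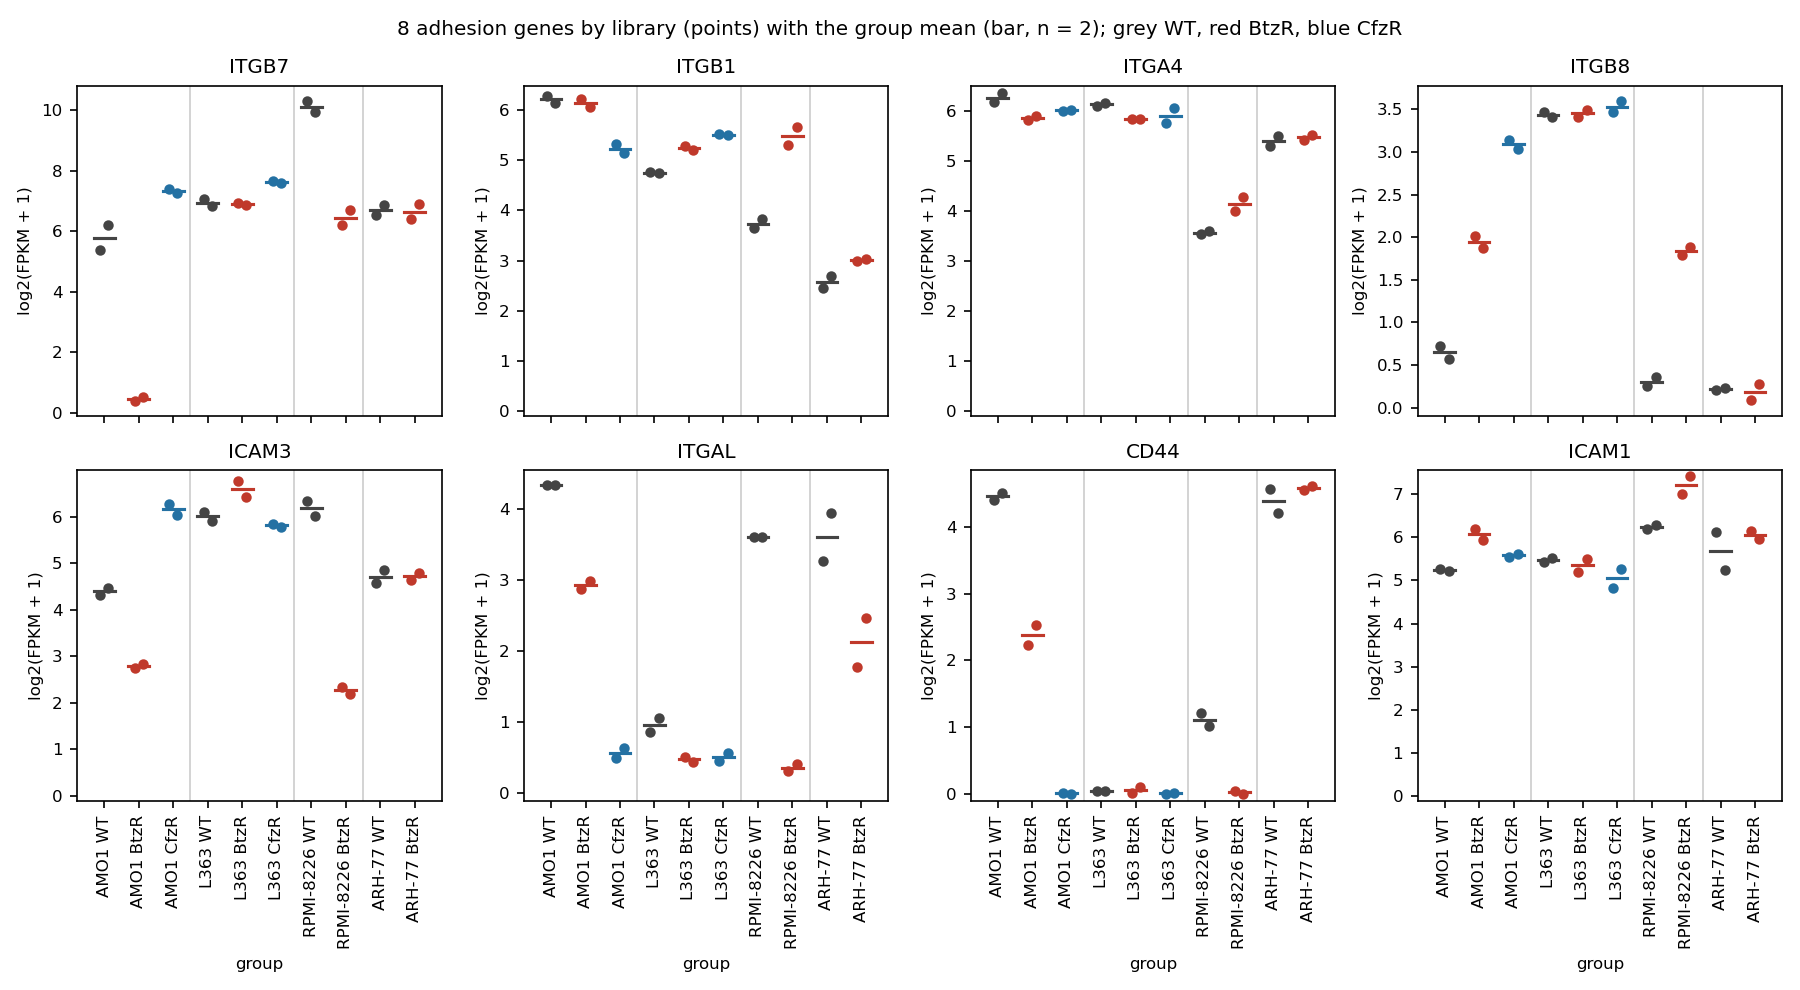
FPKM of 8 adhesion genes as log2(FPKM + 1) (vertical axes, each with its own range) in the 10 groups; points are the 2 libraries, bars the group mean, grey WT, red BtzR and blue CfzR. ITGB7, ICAM3 and ITGAL lie lower in AMO1 BtzR and RPMI-8226 BtzR than in their WT, while ITGA4 stays between 10.7 and 81.4 FPKM everywhere.

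RPMI-8226 BtzR differed from its parent in 11 of 26 members, 5 higher and 6 lower, with 13.8% of all genes called (5.91% higher, 7.92% lower). The median log2 difference of the 26 members was 0.06, and that of all genes 0.05. ITGB7 dropped from 1257 and 974 FPKM in WT to 72.3 and 102 in BtzR, 12.8-fold lower by the means (log2 difference -3.67, SE 0.24, limma adjusted p = 5.15e-09). ITGB1 rose from 11.5 and 13.1 to 38.3 and 49.3 FPKM, 3.55-fold (log2 difference 1.74, SE 0.12, limma adjusted p = 8.90e-09). ITGB5, a partner of alpha-V that binds vitronectin, rose from 10.6 and 10.8 to 28.1 and 23.6 FPKM (log2 difference 1.20), and ITGB8, the alpha-V partner known for activating latent TGF-beta, from 0.19 and 0.28 to 2.45 and 2.68 FPKM (log2 difference 1.53). ITGB2 fell from 2.70 and 1.47 to 0.23 and 0.13 FPKM (log2 difference -1.36). ITGB3, another alpha-V partner, was at 0.00 and 0.01 FPKM in WT and 0.65 and 0.70 in BtzR, a log2 difference of 0.74 that was called only at a pseudocount of 0.1 or 0.01 FPKM (2.88 and 5.60) or with TPM scaling (1.28). None of these libraries overlapped between the groups, which adds little with 2 libraries per group and was not counted over all genes. Even after the drop, ITGB7 remained the most abundant beta chain, at 50.7% and 57.0% of beta chain FPKM, with ITGB1 at 26.9% and 27.6% and ITGB5 at 19.7% and 13.2%.

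Among the alpha chains of RPMI-8226 BtzR, a collagen receptor chain and a laminin receptor chain that pair with beta-1 rose. ITGA2, the alpha chain of the collagen receptor VLA-2, went from 0.23 and 0.33 to 7.65 and 12.9 FPKM (log2 difference 3.10, SE 0.16, limma adjusted p = 3.60e-10). ITGA6, a laminin receptor chain, went from 0.16 and 0.20 to 4.66 and 5.73 FPKM (log2 difference 2.39, SE 0.11, limma adjusted p = 1.11e-10). ITGA3, another laminin receptor chain, was at 1.68 and 1.96 in WT and 3.06 and 3.48 in BtzR, and ITGA4 at 10.7 and 11.1 in WT and 15.0 and 18.4 in BtzR. Neither reached the fold needed for a call, at log2 differences of 0.60 and 0.57. ITGAL, the alpha chain of LFA-1, fell from 11.2 and 11.2 to 0.24 and 0.33 FPKM (log2 difference -3.24, SE 0.20, limma adjusted p = 3.63e-09), so that both chains of LFA-1 were below 1 FPKM in the resistant cells.

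The upstream sequence of 4 chains is shown because ITGB7 fell while ITGB1, ITGA2 and ITGA6 rose in the same cells. Each is the part of the 250 bases before the RefSeq start (GRCh38.p14, 5′ to 3′ on the gene's strand) that lies in no annotated exon, and capitals mark matches on either strand to the GC box GGGCGG, the ETS-type motif AGGAAG, the TATA-type motif TATAAA, the E-box motif CACGTG, the AP-1 motif TGACTCA or the RUNX-type motif TGTGGT.
ITGB7 (chr12:53207308-53207501, minus strand): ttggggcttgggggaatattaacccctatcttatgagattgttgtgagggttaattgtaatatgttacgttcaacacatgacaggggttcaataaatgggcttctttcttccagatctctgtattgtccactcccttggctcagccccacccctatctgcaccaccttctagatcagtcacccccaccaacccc
ITGB1 (chr10:32958233-32958480, minus strand): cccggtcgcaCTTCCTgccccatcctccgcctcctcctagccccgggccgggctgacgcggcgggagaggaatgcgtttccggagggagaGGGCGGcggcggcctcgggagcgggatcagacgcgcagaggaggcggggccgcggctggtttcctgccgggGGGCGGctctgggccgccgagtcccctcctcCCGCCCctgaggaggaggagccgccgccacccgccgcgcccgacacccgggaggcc
ITGA2 (chr5:52989102-52989325, plus strand): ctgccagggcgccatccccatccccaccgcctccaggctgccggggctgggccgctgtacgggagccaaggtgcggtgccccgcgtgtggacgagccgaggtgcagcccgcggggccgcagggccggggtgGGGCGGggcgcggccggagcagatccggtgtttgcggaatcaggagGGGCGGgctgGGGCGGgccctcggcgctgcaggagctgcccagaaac
ITGA6 (chr2:172427086-172427335, plus strand): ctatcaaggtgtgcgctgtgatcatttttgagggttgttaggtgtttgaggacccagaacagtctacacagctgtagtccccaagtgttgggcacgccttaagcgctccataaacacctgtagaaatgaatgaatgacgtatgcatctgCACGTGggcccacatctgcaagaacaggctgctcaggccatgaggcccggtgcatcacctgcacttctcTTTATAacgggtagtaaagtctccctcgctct
In the full 250 bases, ITGB1 held 3 GC boxes and 1 ETS-type match, ITGA2 held 4 GC boxes of which 3 are in the stretch shown, ITGA6 held 1 E-box and 1 TATA-type match, and ITGB7 held 1 ETS-type match, outside the stretch shown. GC boxes occurred in 42.6% of all 35116 windows of this length, the ETS-type motif in 28.7%, the TATA-type in 10.7%, the RUNX-type in 11%, the E-box in 6.34% and the AP-1 motif in 4.2%. The 31 windows listed for members held these in 14, 12, 4, 1, 1 and 0 cases, in the same order. These matches describe letters only and do not show that a factor binds. For ITGB1 and ITGA6 the first of 2 listed windows was used.

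**Figure D3:**
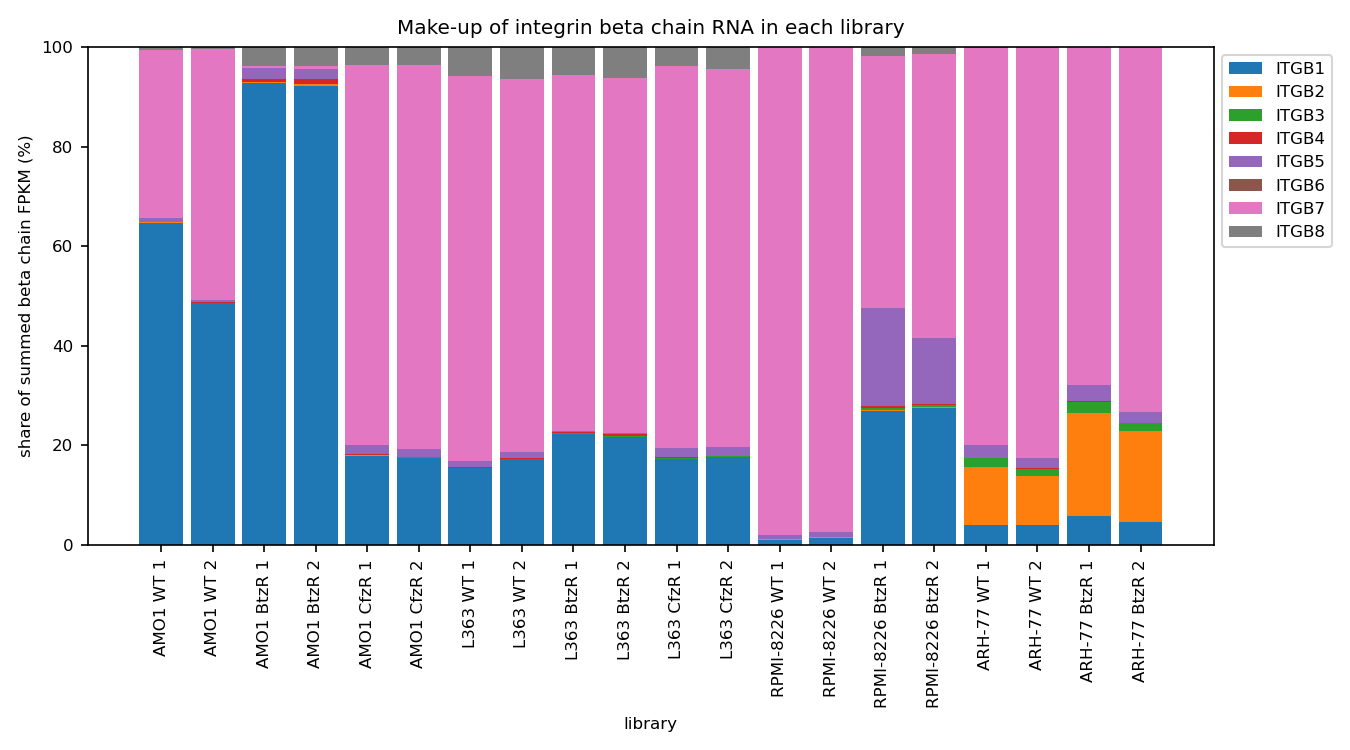
Stacked bars of the share of summed beta chain FPKM (vertical axis, percent) contributed by each of the 8 beta chains in each of the 20 libraries (horizontal axis). ITGB1 makes up 92.8% and 92.2% in AMO1 BtzR, where ITGB7 is at 0.31 and 0.45 FPKM, and ITGB7 falls from 98.0% and 97.4% in RPMI-8226 WT to 50.7% and 57.0% in BtzR.

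In AMO1 BtzR the ITGB7 transcript fell below 1 FPKM. In this comparison 8 of 26 members were called, 2 higher and 6 lower, with 9.18% of all genes called (4.61% higher, 4.57% lower). At a pseudocount of 0.1 and 0.01 FPKM, 13 and 14 were called, with no share of all genes computed at those settings. The median log2 difference was -0.05 for the members and -0.0017 for all genes. ITGB7 went from 40.4 and 72.0 FPKM in WT to 0.31 and 0.45 in BtzR, 148-fold lower by the means (log2 difference -5.32, SE 0.24, limma adjusted p = 2.69e-10). ITGB1 did not follow the course seen in RPMI-8226: it was at 77.0 and 69.1 FPKM in WT and 73.2 and 65.4 in BtzR, a log2 difference of -0.07 (SE 0.12). ITGA4 was at 71.7 and 81.4 FPKM in WT and 55.6 and 58.7 in BtzR (log2 difference -0.41), so the alpha partner of beta-7 remained abundant. As a share of beta chain FPKM, ITGB1 went from 64.6% and 48.5% to 92.8% and 92.2% at a nearly equal FPKM of its own.

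The other AMO1 BtzR calls were mostly of low or moderate chains. ITGAL fell from 19.3 and 19.2 to 6.32 and 6.95 FPKM (log2 difference -1.41), although its only partner ITGB2 was at 0.24 and 0.04 FPKM in WT and 0.13 and 0.22 in BtzR. CD44 fell from 20.2 and 21.8 to 3.69 and 4.81 FPKM (log2 difference -2.08, SE 0.12, limma adjusted p = 4.96e-09). ITGB8 rose from 0.65 and 0.49 to 3.05 and 2.67 FPKM (log2 difference 1.30). ITGAD, a leukocyte alpha chain whose gene lies next to ITGAX, was at 0.00 and 0.01 FPKM in WT and 1.36 and 0.73 in BtzR, a log2 difference of 1.01 that quantile normalization took to 0.94 and below the call. ITGAD passed the filter only through its mean in AMO1 BtzR, so this call is not independent of the filter. ITGAX was at 1.58 and 2.24 FPKM in WT and 5.17 and 3.64 in BtzR (log2 difference 0.89), short of a call. It became one at a pseudocount of 0.1 or 0.01 FPKM (1.16 and 1.20) and without AMO1 WT replicate 2 or AMO1 BtzR replicate 2. Summed marker levels also differed in this comparison. The 4 T cell markers summed to 8.38 and 12.8 FPKM in WT and 1.39 and 1.99 in BtzR, mainly through CD3E (8.70 and 0.90 as means) with CD3D at 0 in both groups. The B cell markers summed to 65.7 and 64.5 in WT and 37.0 and 37.2 in BtzR, mainly through CD79B, with MS4A1 at 0.17 or less as a mean, and the 5 myeloid markers to 9.79 and 11.6 against 5.07 and 5.49, through CD68 and LYZ. The 7 plasma cell markers summed to 4083 and 3761 in WT and 2150 and 2382 in BtzR, which was SDC1 (means of 3075 and 1316), while MZB1 (489 and 629) and PRDM1 (26.3 and 37.9) were at the higher mean in BtzR. In RPMI-8226 the myeloid markers, with FCGR1A at 0, summed to 23.1 and 18.7 in WT and 9.83 and 12.1 in BtzR, through CD68 (15.3 and 3.60 as means) and against LYZ (5.48 and 7.19). B cell markers there summed to 5.04 and 4.86 against 1.40 and 1.70. The plasma cell sum went from 1231 and 1191 to 914 and 852, with MZB1 (686 and 368), TNFRSF17 (96.1 and 6.40) and CD38 (51.2 and 2.73) lower and XBP1 (247 and 334), IRF4 (63.4 and 100.3) and PRDM1 higher by their means. Their part in the adhesion changes was not tested.

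The ICAMs, the counter-receptors of the leukocyte integrins, divided by member. ICAM3 (CD50), found mainly on leukocytes, fell in RPMI-8226 BtzR from 79.6 and 64.1 to 4.10 and 3.58 FPKM, 18.7-fold (log2 difference -3.91, SE 0.14, limma adjusted p = 6.72e-12). In AMO1 BtzR it fell from 18.9 and 21.3 to 5.73 and 6.18 FPKM (log2 difference -1.60, SE 0.14, limma adjusted p = 3.82e-07). It was not called in L363 BtzR, at 108 and 84.5 FPKM against 67.6 and 59.3 in WT, or in ARH-77 BtzR, at 24.1 and 26.9 against 22.7 and 28.1. ICAM4, a low member of the family known from red cells, fell in AMO1 BtzR from 4.72 and 8.55 to 1.90 and 1.28 FPKM (log2 difference -1.52) and in RPMI-8226 BtzR from 5.63 and 4.62 to 1.86 and 1.96 (log2 difference -1.07). The RPMI-8226 call on ICAM4 was lost without RPMI-8226 WT replicate 1, at -0.95. ICAM2 fell in AMO1 BtzR from 55.9 and 62.5 to 19.8 and 23.7 FPKM (log2 difference -1.41), and its values in RPMI-8226, 48.6 and 42.4 in WT and 28.6 and 30.6 in BtzR, gave no call (log2 difference -0.60). In L363 BtzR and ARH-77 BtzR it was also lower than in WT without a call. The log2 differences there were -0.64 and -0.51 (limma adjusted p = 0.00162 and 0.00748). ICAM2 was not among the members whose BtzR effect was called as unequal between lines, since the range of its differences was under 1. Without AMO1 BtzR replicate 2 the range was 1.02, so the missing call does not show equal differences in the 4 lines.

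ICAM1 had positive differences in both lines. It was at 72.1 and 76.6 FPKM in RPMI-8226 WT and 127 and 170 in BtzR (log2 difference 0.97, SE 0.23), and at 37.6 and 36.0 in AMO1 WT and 72.4 and 60.6 in BtzR (0.83, SE 0.23). Neither was called, and the RPMI-8226 value became a call without RPMI-8226 WT replicate 2 or BtzR replicate 1. ICAM5, which was first described on neurons, ranged from 2.66 to 15.4 FPKM and was called in no resistant group. ICAM1, ICAM4 and ICAM5 are adjacent genes on chromosome 19, and of these ICAM4 alone was called in AMO1 BtzR and in RPMI-8226 BtzR. CD44 in RPMI-8226 BtzR went from 1.31 and 1.03 to 0.03 and 0.00 FPKM (log2 difference -1.09), a call that quantile normalization took to -0.97.

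**Figure D4:**
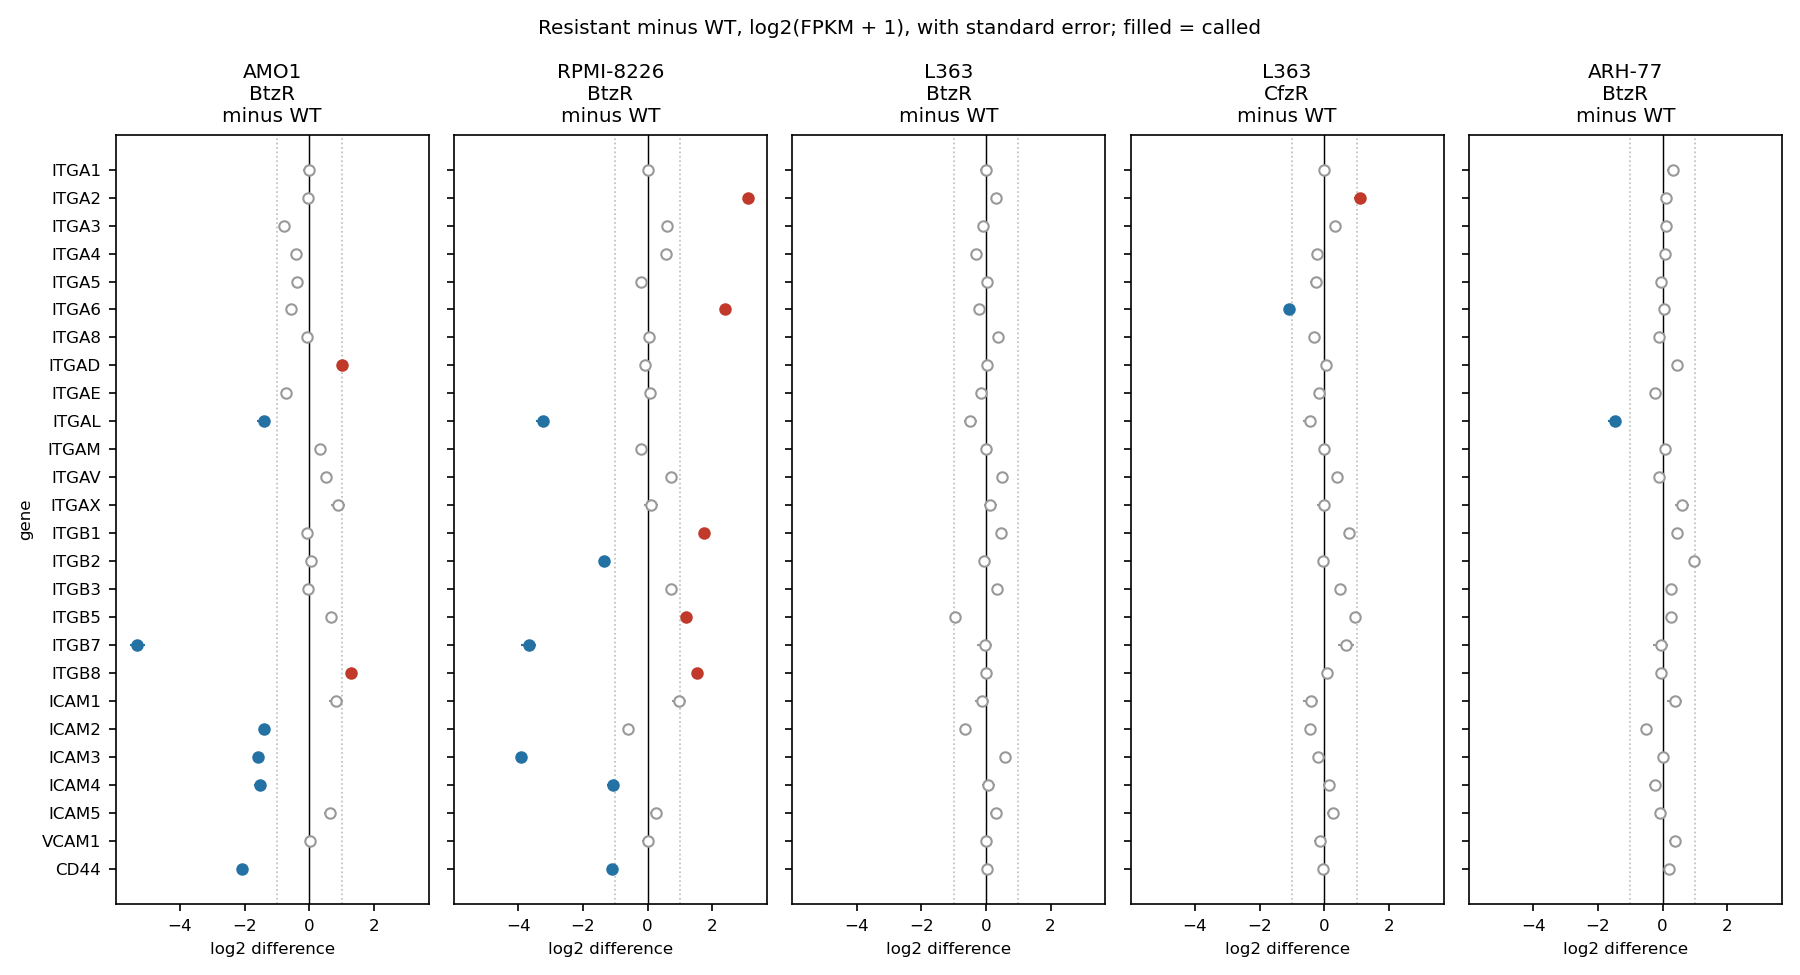
Log2 difference on the log2(FPKM + 1) scale of the 26 tested members (rows) in 5 comparisons of a resistant group with its WT (panels); bars are standard errors, mostly smaller than the points, filled points are called and dotted lines mark a difference of 1. AMO1 BtzR has 8 filled points, RPMI-8226 BtzR 11, L363 BtzR 0, L363 CfzR 2 and ARH-77 BtzR 1.

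The AMO1 and RPMI-8226 comparisons share no libraries, so their calls can be set side by side. The calls are not independent, since both use the spread of each gene pooled over the 10 groups. The members were also chosen with earlier results of these data known. ITGB7, ICAM3, ITGAL, ICAM4 and CD44 were lower in both, which is 83.3% of the 6 members lower in AMO1 BtzR and 83.3% of the 6 lower in RPMI-8226 BtzR. Over all genes tested, 134 were lower in both, 22.4% of the 598 in AMO1 and 12.9% of the 1036 in RPMI-8226. ITGB8 was the only member higher in both, 50% of the 2 in AMO1 and 20% of the 5 in RPMI-8226, and 85 of all genes were (14.1% of 603 and 11% of 773).

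Few members were called in L363 under either drug at the pseudocount of 1 FPKM. In L363 BtzR the count was 0 (limma, 2.06% of all genes, 1.02% higher and 1.05% lower), and 9 of 26 had an unadjusted p under 0.05. Of these, ITGA8, ITGAV, ITGB1, ITGB3, ITGB5, ICAM2 and ICAM3 also had a limma adjusted p under 0.05 (7.21e-05 to 0.0321). They missed a call on the log2 difference alone. At a pseudocount of 0.1 or 0.01 FPKM, 3 members were called in BtzR (ITGAL, ITGB3 and ITGB5) and 5 in CfzR. The shares of all genes called at those settings, or with an unadjusted p under 0.05, were not computed, so these counts have no background. ITGB3 was at 0.03 and 0.03 FPKM in WT, 0.27 and 0.37 in BtzR and 0.46 and 0.42 in CfzR. ITGB7 was at 131 and 113 FPKM in WT and 121 and 117 in BtzR (log2 difference -0.03, SE 0.24). In L363 CfzR 2 members were called (1.93% of all genes, 1.11% higher and 0.825% lower), ITGA2 from 0.23 and 0.22 to 1.41 and 1.83 FPKM (log2 difference 1.09) and ITGA6 from 5.04 and 4.23 down to 1.76 and 1.47 (log2 difference -1.11). The ITGA2 call was lost without L363 CfzR replicate 2, at 0.98, and the ITGA6 call at a pseudocount of 0.01 FPKM (log2 difference -1.52, adjusted p above 0.05). ITGB1 was at 26.1 and 25.8 in WT and 44.8 and 44.1 in CfzR (0.76, not called), and ITGB7 at 199 and 191 FPKM in CfzR (0.67, SE 0.24, not called). Both comparisons use the same WT libraries.

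ITGB5 was the member called between the L363 derivatives. It was at 2.09 and 1.76 FPKM in WT, 0.44 and 0.56 in BtzR and 4.88 and 4.48 in CfzR. Neither difference from WT was called, at -0.96 and 0.96, and each became a call at smaller pseudocounts, with TPM scaling, or when a single library was left out (for BtzR, WT replicate 2 or BtzR replicate 2, and for CfzR, WT replicate 1 or CfzR replicate 2). The direct comparison of CfzR with BtzR called ITGB5 alone among the members (1.47% of all genes, 0.94% higher and 0.535% lower). ITGB5 was 9.36-fold higher in CfzR (log2 difference 1.92, SE 0.12, limma adjusted p = 9.08e-08). At the smaller pseudocounts 3 and 2 members were called, with no share of all genes computed at those settings. ITGAV, the alpha partner of ITGB5, was at 5.67 and 5.53 FPKM in BtzR and 4.69 and 5.45 in CfzR, and was not called. Also lower in CfzR without a call were ITGA6, at 3.90 and 3.77 FPKM in BtzR and 1.76 and 1.47 in CfzR, and ITGA8. The ITGA8 values were 27.5 and 29.9 in BtzR and 18.0 and 17.3 in CfzR. ITGA6 became a call at a pseudocount of 0.1 FPKM or with TPM scaling.

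ARH-77 BtzR differed from its parent by a single call (1.6% of all genes, 0.955% higher and 0.649% lower). ITGAL fell from 8.65 and 14.4 to 2.45 and 4.53 FPKM (log2 difference -1.48, SE 0.20, limma adjusted p = 0.000145), a call that was lost when the 4 ARH-77 libraries were fitted alone. At a pseudocount of 0.1 and 0.01 FPKM there were 2 and 3 calls, with no share of all genes computed at those settings. Its partner ITGB2 was at 13.3 and 13.9 in WT and 25.6 and 29.3 in BtzR (log2 difference 0.96), which was called without ARH-77 BtzR replicate 1 or with quantile normalization. ITGB7, ICAM3 and CD44 had log2 differences of -0.05, 0.01 and 0.19 in ARH-77 BtzR.

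Whether the BtzR difference was equal in the 4 lines was tested directly as an interaction. The BtzR difference was unequal between lines for 14 of 26 members (32.6% of all genes), and the median range over the lines was 1.09 for the members and 0.76 for all genes. ITGB7 ran from -5.32 in AMO1 and -3.67 in RPMI-8226 to -0.03 in L363 and -0.05 in ARH-77. ICAM3 ran from -3.91 in RPMI-8226 and -1.60 in AMO1 to 0.59 in L363. ITGA2 and ITGA6 stood out in RPMI-8226, at 3.10 and 2.39, against -0.58 to 0.31 in the other lines. ITGAL had a negative log2 difference in all 4 lines, from -3.24 in RPMI-8226 to -0.48 in L363, where its limma adjusted p was 0.154. ICAM2 was negative in all 4 lines as well, from -1.41 in AMO1, its only call, to -0.51 in ARH-77.

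In these genes the libraries labelled AMO1 CfzR were close to L363. Against AMO1 WT 10 members were called (17.1% of all genes), 5 higher (7.88%) and 5 lower (9.21%). ITGA8 was at 22.7 and 20.5 FPKM in them and 0.18 and 0.24 in AMO1 WT (log2 difference 4.22), and CD44 at 0.01 and 0.00 against 20.2 and 21.8 (log2 difference -4.45). ITGB7, ITGB8, ITGB5 and ICAM3 were higher and ITGA6, ITGAL, ITGAX and ICAM4 lower. Against L363 WT the count was 0 (limma, 1.66% of all genes, 0.856% higher and 0.802% lower), and 7 of 26 had an unadjusted p under 0.05, a share not computed for all genes. Among them ITGA6 had a limma adjusted p of 0.000399 at a log2 difference of -0.74, short of the fold for a call. ITGA8 and ITGB8 reached 1 FPKM together in these libraries and in L363 alone. Resistance and cell line cannot be told apart for this group.

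Counting known heterodimers with both chains at 1 FPKM or more in both libraries of a group gave 6 of 24 pairs in AMO1 WT, 6 in AMO1 BtzR, 8 in L363 WT, 7 in L363 BtzR, 9 in L363 CfzR, 7 in RPMI-8226 WT, 9 in RPMI-8226 BtzR, and 10 in each ARH-77 group. The libraries labelled AMO1 CfzR had 8. ITGA4/ITGB1 and ITGAV/ITGB1 were present in all 10 groups. ITGA4/ITGB7 was present in 9 and missing in AMO1 BtzR. AMO1 BtzR gained ITGAV/ITGB5 and ITGAV/ITGB8 over its WT and lost ITGA4/ITGB7 and ITGAE/ITGB7, the receptor for E-cadherin. Of the chains that crossed 1 FPKM there, ITGB5 and ITGAE were not called (log2 differences of 0.68 and -0.72). RPMI-8226 BtzR gained ITGA2/ITGB1, ITGA6/ITGB1 and ITGAV/ITGB8 and lost ITGAL/ITGB2. The ITGAM/ITGB2, ITGAX/ITGB2, ITGA1/ITGB1, ITGA5/ITGB1 and ITGAV/ITGB3 pairs were present in the ARH-77 groups and in no others. The threshold is a level of RNA and not evidence of a pair on the cell surface. The ratio of ITGB7 to ITGB1 within a library was 109 and 74.4 in RPMI-8226 WT, 1.89 and 2.07 in RPMI-8226 BtzR, 0.53 and 1.04 in AMO1 WT and 0.0042 and 0.0069 in AMO1 BtzR.

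**Figure D5:**
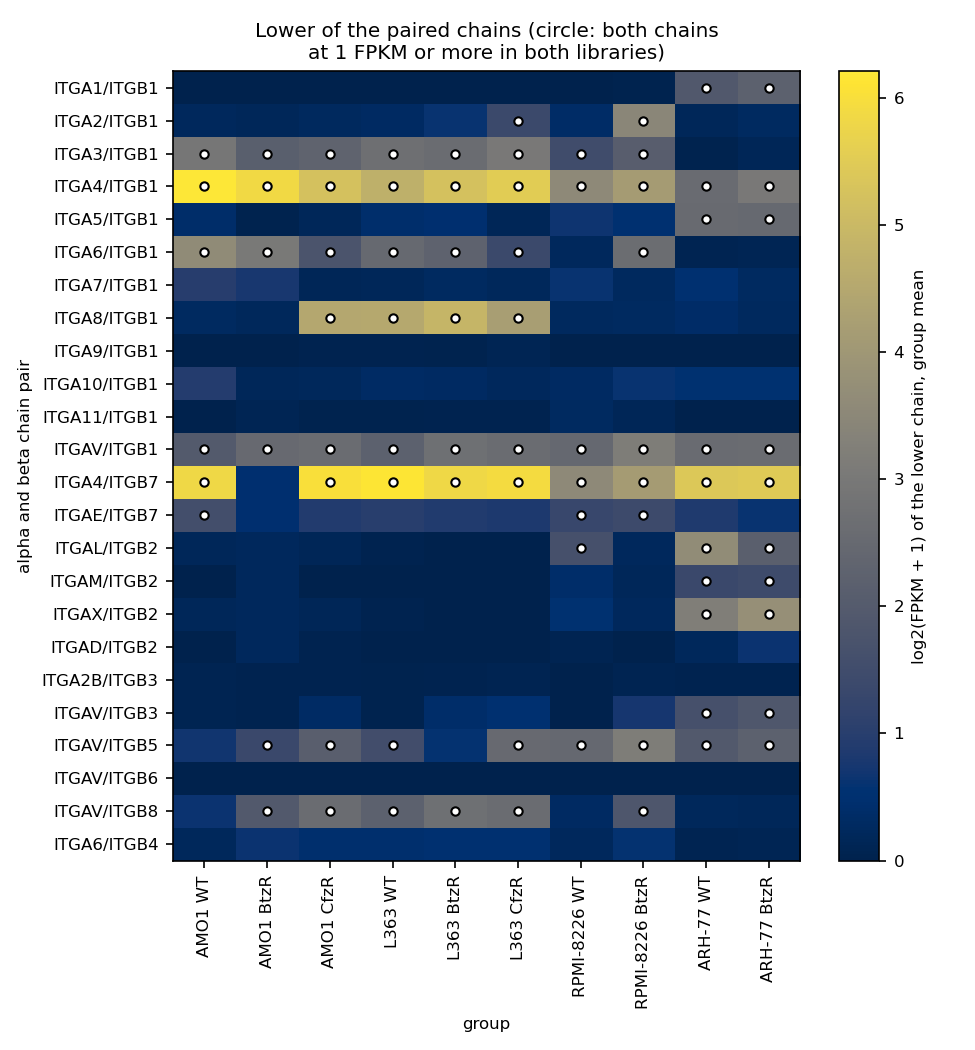
Heat map of 24 known integrin pairs (rows) in the 10 groups (columns). Colour is the log2 of the group mean FPKM plus 1 for the lower of the 2 chains, chosen by mean FPKM. Circles mark pairs with both chains at 1 FPKM or more in both libraries. ITGA4/ITGB7 lacks a circle in AMO1 BtzR, and the ITGA8/ITGB1 row is filled in L363 and in the libraries labelled AMO1 CfzR.

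Genes around the integrins were read from 2 lists. Of 39 tested cytoplasmic linkers and activators of integrins, AMO1 BtzR had 2 higher and 5 lower (of all genes, 4.61% and 4.57%), RPMI-8226 BtzR 5 higher and 3 lower (5.91% and 7.92%), either L363 derivative 1 higher and 1 lower (1.02% and 1.05% for BtzR, 1.11% and 0.825% for CfzR), and ARH-77 BtzR 1 higher (0.955%). The median log2 difference of the list lay between -0.02 and 0.02 in these comparisons, and that of all genes between -0.04 and 0.05. APBB1IP, which encodes the RIAM adaptor that links RAP1 to talin, had the largest change of the list in both lines in which ITGB7 fell. It fell from 29.4 and 34.2 to 0.54 and 0.57 FPKM in AMO1 BtzR and from 49.4 and 46.1 to 0.06 and 0.00 in RPMI-8226 BtzR. In L363, where no ITGB7 call was made, APBB1IP rose from 0.77 and 0.62 FPKM in WT to 10.4 and 11.2 in BtzR and 2.20 and 3.25 in CfzR. RASGRP2, an activator of RAP1, and RAP1B itself were also lower in AMO1 BtzR (log2 differences of -2.48 and -1.92). LIMS2, a partner of integrin-linked kinase, and ACTN1, an actin cross-linker, were higher in RPMI-8226 BtzR (2.67 and 1.47), and FERMT1, a kindlin that binds beta tails, was lower in L363 BtzR and CfzR (-1.46 and -1.29). FERMT2, another kindlin, rose in ARH-77 BtzR from 7.89 and 6.23 to 43.9 and 34.5 FPKM.

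Of 21 tested ligands of integrins and CD44, 5 were higher and 3 lower in AMO1 BtzR, where 9.18% of all genes were called. RPMI-8226 BtzR had 2 higher and 5 lower (13.8% of all genes), and ARH-77 BtzR 0 (1.6%). In ARH-77 BtzR 8 had an unadjusted p under 0.05 (limma), a share not computed for all genes. The L363 BtzR cells had 3 higher and 1 lower (2.06% of all genes), and the CfzR cells of that line 1 of each (1.93%). The list medians were between -0.15 and 0.03. In RPMI-8226, fibronectin (FN1), a ligand of VLA-4, fell from 3005 and 3821 FPKM to 36.7 and 96.4 (log2 difference -5.81). SPP1, which encodes osteopontin, fell from 67.7 and 55.0 to 0.12 and 0.27 FPKM, and the laminin chain gene LAMB3 from 27.3 and 34.2 to 2.49 and 2.75. LTBP1, which holds latent TGF-beta in the matrix, rose in AMO1 BtzR from 0.30 and 0.17 to 4.54 and 4.80 FPKM (log2 difference 2.20), as did JAM2 (1.69) and COL6A1 (1.42). In L363, the laminin chain gene LAMC1 was higher in BtzR and in CfzR (1.84 and 1.66), and CDH1, which encodes E-cadherin, lower (-1.56 and -1.34).

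With 2 libraries per group, an exact permutation test of a single gene cannot go below a two-sided p of 0.33, and the limma p-values rest on a spread pooled over the 10 groups. ITGB7, ITGA4, ITGAE, ITGA1, ICAM2, ITGA7 and ITGB4 overlap a neighbouring protein-coding gene in RefSeq, and whether the counting used strand is not given in the sources used here, so reads of the overlap could belong to either gene.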

How the data were processed

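RNA was extracted from frozen cell pellets, made into libraries and sequenced (BGISEQ-500) by BGI. FPKM values of 18305 genes in 20 libraries, to 2 decimals, are what the authors deposited. The submitters' processing notes name HISAT2 2.0.4, Bowtie2 2.2.5 and RSEM 1.2.12. Their roles, the genome build and any strand setting are not given in the sources used here. Read counts do not accompany the deposited FPKM, so depth is unknown, intervals on counts were not computed, and a value of 0 means listed at 0. Each library was assigned to its group by the line, drug and replicate in its label, and 0 value columns were left unused.

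Values were transformed as log2(FPKM + 1). The 13089 genes whose mean reached 1 FPKM in some group were fitted with limma 3.58.1 in R 4.3.3, on all libraries, using 10 group means and a mean-variance trend. A log2 difference on this scale understates the change of low genes. p-values were adjusted by the Benjamini-Hochberg method over all genes tested. Differences among lines were tested by limma's moderated F test, called at a range of at least 1. The steps were tested on simulated data. Tables and figures were made in Python 3.11.15 (matplotlib 3.10.9, pandas 2.3.3).

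All 34 members may be named. From the linker and ligand lists, at most the 3 called genes with the largest differences were named per comparison. The members, pairs, lists and tests were chosen with earlier results of these data known. Upstream sequences are RefSeq windows of GRCh38.p14 and the exons removed from them are those of GENCODE. They were used for sequence only, not to place the deposited values. Whether replicates of a group were separate cultures is not detailed beyond their description as biological replicates.

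The alternatives were leaving out each library in turn, a pseudocount of 0.1 or 0.01, the filter dropped or set at 5 FPKM, quantile normalization, rescaling as for TPM, no trend, a block for the replicate number, and fitting only the libraries compared. A fit without the libraries labelled AMO1 CfzR was added after seeing the data.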

Additional observations from a re-analysis of the deposited data

Results flagged for a closer look

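The difference between BtzR and WT was unequal between the 4 lines for 14 members by the moderated F test in limma, each with an adjusted p under 0.05 and a range of at least 1 on the log2(FPKM + 1) scale. The ranges were 5.28 for ITGB7, 4.49 for ICAM3, 3.13 for ITGA2, 2.96 for ITGA6, 2.76 for ITGAL, 2.32 for ITGB2, 2.27 for CD44, 2.16 for ITGB5, 1.82 for ITGB1, 1.60 for ICAM4, 1.56 for ITGB8, 1.39 for ITGA3, 1.09 for ICAM1 and 1.08 for ITGAD. ITGAD passed the filter only through AMO1 BtzR, the group that gave its largest difference. ITGA2 passed only through RPMI-8226 BtzR, which gave its largest difference, and L363 CfzR. AMO1 and RPMI-8226 held the same sign in 8 of the 14 members and opposite signs in ITGA2, ITGA3, ITGA6, ITGB1, ITGB2 and ITGAD. The share of all genes with equal signs was not computed, so the count is not read as agreement. Past the call in both were 6, with ITGB7, ICAM3, ITGAL, ICAM4 and CD44 negative and ITGB8 positive. Over all genes tested, 134 were called lower and 85 higher in both. ITGB2 had opposite signs in RPMI-8226 (-1.36) and ARH-77 (0.96), ITGB5 in RPMI-8226 (1.20) and L363 (-0.96), and ITGA3 in AMO1 (-0.79) and RPMI-8226 (0.60). The call on ICAM1 depended on the setting: its range lay between 0.94 and 1.30 over the libraries left out, and the call was lost with no filter and without either L363 WT library, L363 BtzR replicate 1, RPMI-8226 WT replicate 1 or RPMI-8226 BtzR replicate 2. Groups of 2 libraries are too small for a test of single outlying libraries.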

How the results depend on the processing

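Over 286 member values in 11 comparisons, of which 81 were called, no direction of a called value reversed under any alternative. Removing the mean-variance trend, adding the replicate number as a block or leaving the libraries labelled AMO1 CfzR out of the fit changed no call, and the 5 FPKM filter changed none of the 209 values it kept. The numbers of the replicates were checked for pairing: deviations of same-numbered libraries correlated at r = -0.0055 to 0.245 over the 8 comparisons with such pairs, and the numbers are not stated to mark a shared batch. With the replicate block the calls were again 8 in AMO1 BtzR, 11 in RPMI-8226 BtzR, 1 in ARH-77 BtzR, and 0 and 2 in the BtzR and CfzR cells of L363. Smaller pseudocounts, which weigh low genes more, gave more calls. Shares of all genes called were computed only for the fit described above, so counts under the alternatives have no such background. At 0.1 and 0.01 FPKM these were 13 and 14 in AMO1 BtzR, 2 and 3 in ARH-77 BtzR, 3 at either setting in L363 BtzR, 5 at either in CfzR cells of that line, 1 and 2 for the libraries labelled AMO1 CfzR against L363 WT, and 3 and 2 for L363 CfzR against L363 BtzR, and 16 at 0.01 for those libraries against AMO1 WT. Rescaling as for TPM gave 1 call in L363 BtzR and 3 in L363 CfzR against BtzR, and quantile normalization 2 in ARH-77 BtzR. A fit of the compared libraries only gave 0 in ARH-77 BtzR, where fewer residual degrees of freedom remain. The filter of 5 FPKM gave 9 calls for ARH-77 WT against the myeloma WT lines, with 19 members tested. Leaving out 1 library gave 7 to 9 calls in AMO1 BtzR, 10 to 12 in RPMI-8226 BtzR, 0 to 1 in L363 BtzR, 2 to 3 in L363 CfzR, 1 to 2 in ARH-77 BtzR, 10 to 12 for the libraries labelled AMO1 CfzR against AMO1 WT, 13 to 15 for ARH-77 WT, 20 to 21 among the WT lines and 13 to 16 for the interaction. The ITGA6 call in L363 CfzR was lost at a pseudocount of 0.01, where its log2 difference was -1.52. The unknown depth limits what can be said of members below 1 FPKM.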
